A study of Rattus norvegicus with 24 samples.

Results

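The genes described here are the 51 listed genes that lie around the endothelin-3 gene (Edn3) and Rtel1 near the end of rat chromosome 3. They were taken by their names and place on the chromosome, with earlier results of these data known. Rtel1 is itself a gene that the stretch was chosen around, so its call is no independent result about the list. They lie in a stretch of 125 protein-coding genes at the distal end of the chromosome, in the gene order of a rat RefSeq annotation, from Bcas1 to Pcmtd2. A probe set with 1 gene symbol was found for 44 of the 51 genes, 75 probe sets in all, out of 31142 probe sets and 13811 named genes of the whole series. The other 7 genes (Ptk6, Lime1, Lsm14b, Cdh4, Mc3r, Cass4 and Tubb1) had no probe set of their own name, and 2 probe sets that name both Lime1 and Zgpat were not counted for either. Edn3, which stands between Tubb1 and Phactr3 in that order, was not analysed here.

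Kidney RNA came from male rats of 3 strains that all received the same diets. The ET3x2 and ET3x1 rats are congenic substrains, and the SS/jr rats, called S, are the inbred Dahl salt-sensitive strain. All ate a low salt food with 0.4% NaCl until 39 to 41 days of age, then a 2% NaCl food for 28 days, and the left kidney was taken at 67 to 69 days. Each strain gave 4 RNA pools, named I to L in ET3x2 (3 rats per pool), E to H in ET3x1 (3 rats per pool) and A to D in S (2 rats per pool), and each pool was hybridised to the arrays RAE230A and RAE230B. The pools hold different rats, so a p-value sets a difference against the variation from pool to pool, in which that of the assay is included. A pool of rats hides the spread between single animals, and whole-kidney RNA does not tell more cells of a type from more RNA per cell.

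In a congenic strain a chromosome segment of a donor strain has been bred into the background of another, and the full strain names of ET3x2 and ET3x1 give a salt-resistant (R) donor and the background S. Genes inside the segment carry donor alleles, so their transcripts can differ in level or in sequence between the strains, while a gene outside the segment has the same alleles in both. The segment's borders in ET3x1 and ET3x2 are not given in the sources used here, so it was not analysed which of the listed genes lie inside it. Edn3 encodes a vasoactive peptide of the endothelin family, and Rtel1 encodes a DNA helicase that takes apart telomere loops and other secondary structures of DNA during replication.

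All values are log2 signals of the deposited tables, and differences are log2 differences of signals with standard error (SE) and a 95% confidence interval from limma. A probe set was tested where its mean over the 12 pools was at or above the 30th percentile of its array (7.52 on RAE230A, 6.85 on RAE230B). This kept 61 of the 75 probe sets, of 41 genes, counting a probe set once for each array on which it is named. It also kept 21799 probe sets of 11218 genes in all, over which p-values were adjusted within each array. Called means an adjusted p under 0.05 in limma.

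Stretches before the starts of 3 genes' transcripts are shown, that of Rtel1 because it was called against S in both congenic strains. That of its neighbour Gmeb2 is shown because the RefSeq gene record of Rtel1 begins inside it or just after its end. The stretch of Pcmtd2 is shown because that gene was called between the congenic strains. Each stretch is the 250 bases before the start that the table of RefSeq promoters (GRCr8) gives for the gene, written from 5′ to 3′ on the gene's own strand. The gene record itself can begin further upstream than that start, and that of Rtel1 does, so the Rtel1 window lies within its gene record. The stretches are reference sequence, not the alleles of S or of the congenic strains. The windows are chr3:188807748-188807997 on the plus strand for Rtel1, chr3:188778337-188778586 on the minus strand for Gmeb2 and chr3:189337565-189337814 on the plus strand for Pcmtd2. Capitals mark matches, on either strand, of the 3 motifs searched, which are TATAA for the TATA box, CCAAT for the CAAT box and GGGCGG for the GC box, each also as its reverse complement.

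Rtel1: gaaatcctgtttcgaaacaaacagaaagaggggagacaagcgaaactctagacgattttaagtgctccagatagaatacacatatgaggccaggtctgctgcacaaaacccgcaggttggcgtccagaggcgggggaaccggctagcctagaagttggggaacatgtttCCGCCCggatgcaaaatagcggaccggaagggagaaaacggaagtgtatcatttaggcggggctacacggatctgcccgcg

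Gmeb2: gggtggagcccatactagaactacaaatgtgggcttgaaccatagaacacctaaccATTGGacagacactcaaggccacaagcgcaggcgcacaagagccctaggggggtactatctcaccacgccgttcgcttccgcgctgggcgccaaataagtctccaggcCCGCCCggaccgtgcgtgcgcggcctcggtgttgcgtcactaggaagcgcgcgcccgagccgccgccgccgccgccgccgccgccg

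Pcmtd2: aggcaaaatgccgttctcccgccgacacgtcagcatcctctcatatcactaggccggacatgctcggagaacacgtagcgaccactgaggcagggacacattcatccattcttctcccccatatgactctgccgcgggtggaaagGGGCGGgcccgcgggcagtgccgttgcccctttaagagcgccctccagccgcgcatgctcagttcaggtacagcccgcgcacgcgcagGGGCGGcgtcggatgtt

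The Rtel1 window held 1 match of GGGCGG, on the opposite strand and beginning 81 bases before the start given in that table. The Gmeb2 window held 1 match of CCAAT and 1 of GGGCGG, and the Pcmtd2 window held 2 of GGGCGG. None of the 3 windows held TATAA. Of all 33469 windows of this length in the RefSeq table, 24% held TATAA, 34% held CCAAT and 30.5% held GGGCGG. The table has 49 windows for 40 of the 51 listed genes, of which 8.16% held TATAA, 40.8% held CCAAT and 67.3% held GGGCGG. The median G and C content was 64% in these 49 windows and 51.2% in all windows, and it was 52.8% for Rtel1, 66% for Gmeb2 and 63.2% for Pcmtd2. A match of letters is a description of the reference and no binding site is claimed.

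Against S, the only listed gene with a called difference was Rtel1, which was higher in both congenic strains by about the same amount. The RAE230A probe set 1374921_at of Rtel1 gave signals of 8.62, 8.75, 8.76 and 8.79 in the ET3x2 pools I to L. It gave 8.88, 8.75, 8.73 and 8.69 in the ET3x1 pools E to H, and 8.01, 7.98, 7.94 and 8.01 in the S pools A to D. All 8 congenic pools lay above all 4 S pools, while the pools of ET3x2 and ET3x1 overlapped. The means were 8.73 ± 0.076 in ET3x2, 8.76 ± 0.084 in ET3x1 and 7.98 ± 0.031 in S (SD, n = 4 pools each).

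In ET3x1 kidneys Rtel1 1374921_at rose by 0.78 relative to S (SE 0.067, interval 0.64 to 0.92, 1.72-fold, adjusted p = 3.36e-05, limma). This was 1 called probe set of the 61, against a share of 0.440% called among all tested probe sets (96 of 21799). In ET3x2 kidneys it rose by 0.75 (SE 0.067, interval 0.61 to 0.89, 1.68-fold, adjusted p = 5.86e-05), again 1 of 61, against 0.344% of all tested probe sets (75 of 21799). Both comparisons use the same S pools, so they are not independent of each other. Between ET3x2 and ET3x1 the difference was −0.03 (SE 0.067, interval −0.18 to 0.11, adjusted p = 0.858). These calls held in each of the 23 settings that tested the probe set, with adjusted p up to 0.00704 for ET3x2 and 0.00154 for ET3x1, both reached when pools A, B and J were left out together.

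The other 2 probe sets of this gene carry the name Rtel1, and neither was called. On RAE230B, 1391964_at gave 8.87, 8.84, 8.77 and 8.93 in ET3x2, 8.87, 8.78, 8.92 and 8.99 in ET3x1, and 8.60, 8.75, 8.78 and 8.80 in S. The congenic and S pools overlapped by a few hundredths. Its difference from S was 0.16 in ET3x1 (SE 0.065, interval 0.02 to 0.30, adjusted p = 0.403) and 0.12 in ET3x2 (SE 0.065, interval −0.02 to 0.26, adjusted p = 0.561). These intervals do not reach the difference of 1374921_at. The sequences of the probes, and where in the transcript each probe set lies, were not analysed here.

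The third, 1397955_at on RAE230B, was under the level of the filter in its mean. Its signals were 6.82, 6.98, 6.67 and 6.68 in ET3x2, 6.60, 6.61, 6.63 and 6.59 in ET3x1, and 6.50, 6.39, 6.31 and 6.50 in S. No pool of one strain overlapped those of another, with ET3x2 highest and S lowest. In a fit without the filter the difference from S was 0.36 in ET3x2 (interval 0.21 to 0.52, adjusted p = 0.0548) and 0.18 in ET3x1 (interval 0.03 to 0.34, adjusted p = 0.437). No fold is given at this level. All 3 Rtel1 probe sets were thus higher in the means of both congenic strains than in S, with differences of unlike size.

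**Figure D1:**
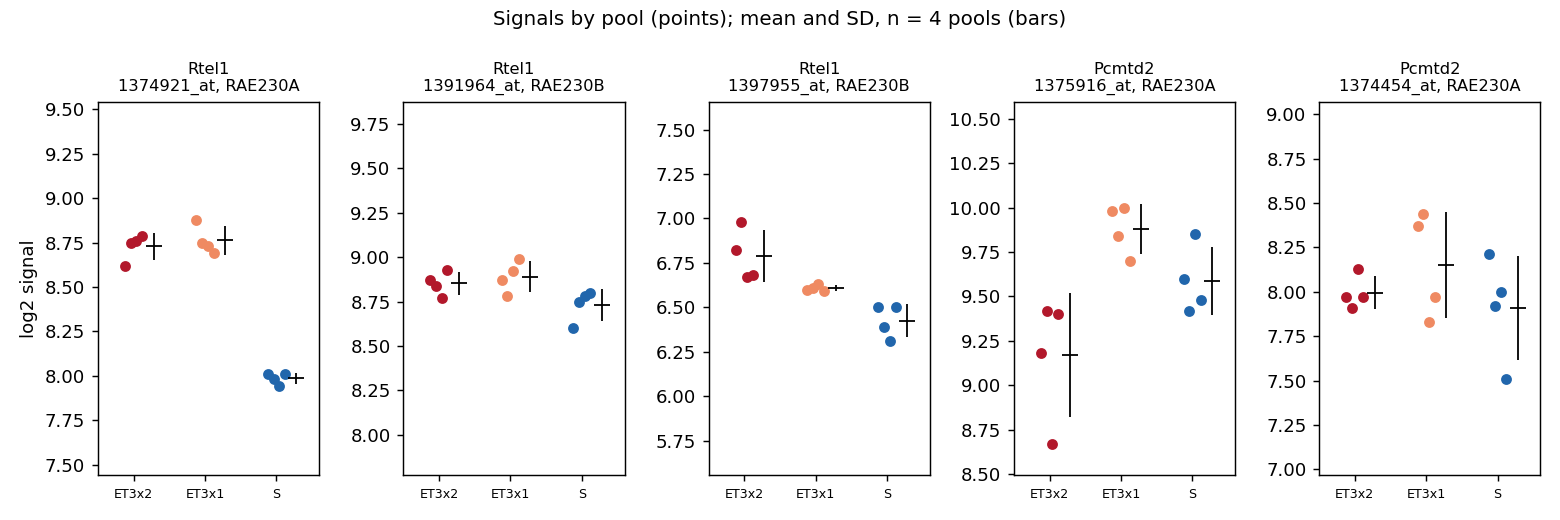
Log2 signal (vertical axis) of the 3 Rtel1 and both Pcmtd2 probe sets in each pool, with ET3x2, ET3x1 and S from left to right; points are pools, horizontal ticks the mean and bars the SD of 4 pools. For Rtel1 1374921_at the congenic pools lie between 8.62 and 8.88 and the S pools between 7.94 and 8.01, and for Pcmtd2 1375916_at the ET3x2 pools lie below the ET3x1 pools.

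The genes next to Rtel1 on the list, in chromosome order, did not pass the test in any comparison. Gmeb2, a factor that binds glucocorticoid modulatory elements, lies just before it, and its tested probe set 1388067_a_at had signals of 8.13 to 8.30 in ET3x2, 8.15 to 8.21 in ET3x1 and 8.14 to 8.36 in S. Stmn3, a stathmin that destabilises microtubules, had 9.03 to 9.09 in ET3x2, 9.01 to 9.11 in ET3x1 and 8.85 to 9.17 in S. For both genes the pools of the 3 strains overlapped. Arfrp1, a small GTPase of the Golgi, differed from S by 0.08 and −0.09 in ET3x1 and by 0.08 and −0.12 in ET3x2 over its 2 probe sets. Zgpat, a zinc finger repressor of transcription, differed from S by −0.09 in ET3x1 (adjusted p = 0.604) and by 0.16 in ET3x2 (adjusted p = 0.404).

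Between the congenic strains the listed gene that passed was Pcmtd2, the last of the list along the chromosome, which belongs by sequence to the protein-isoaspartate methyltransferases. Its probe set 1375916_at gave 9.18, 9.42, 8.67 and 9.40 in ET3x2, 9.98, 9.84, 10 and 9.70 in ET3x1, and 9.60, 9.42, 9.85 and 9.48 in S. Every ET3x2 pool lay below every ET3x1 pool, and the S pools overlapped with both. It fell by 0.71 in ET3x2 relative to ET3x1 (SE 0.15, interval −1.02 to −0.39, adjusted p = 0.0350), 1 called probe set of 61 against 1.48% of all tested probe sets (323 of 21799). Of those 323, 302 were lower in ET3x2 and 21 higher. The count and its split rest on the weighting and on single pools, with 944 lower and 714 higher under array weights, and 308 lower and 180 higher without ET3x1 pool F.

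The Pcmtd2 call depended on which pools were in the fit. It was lost without ET3x1 pool E (−0.68, adjusted p = 0.115), without ET3x1 pool G (−0.67, adjusted p = 0.140), without ET3x2 pool I (−0.71, adjusted p = 0.0983) and without ET3x2 pool K (−0.54, adjusted p = 0.0805). Against S, 1375916_at differed by −0.42 in ET3x2 (SE 0.15, interval −0.73 to −0.10, adjusted p = 0.312) and by 0.29 in ET3x1 (SE 0.15, interval −0.02 to 0.61, adjusted p = 0.406), neither past the threshold. The second probe set, 1374454_at, had 7.97, 7.91, 8.13 and 7.97 in ET3x2, 8.37, 8.44, 7.83 and 7.97 in ET3x1, and 8.21, 7.92, 8.00 and 7.51 in S, with all strains overlapping. Its difference between ET3x2 and ET3x1 was −0.16 (SE 0.15, interval −0.48 to 0.16, adjusted p = 0.648).

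**Figure D2:**
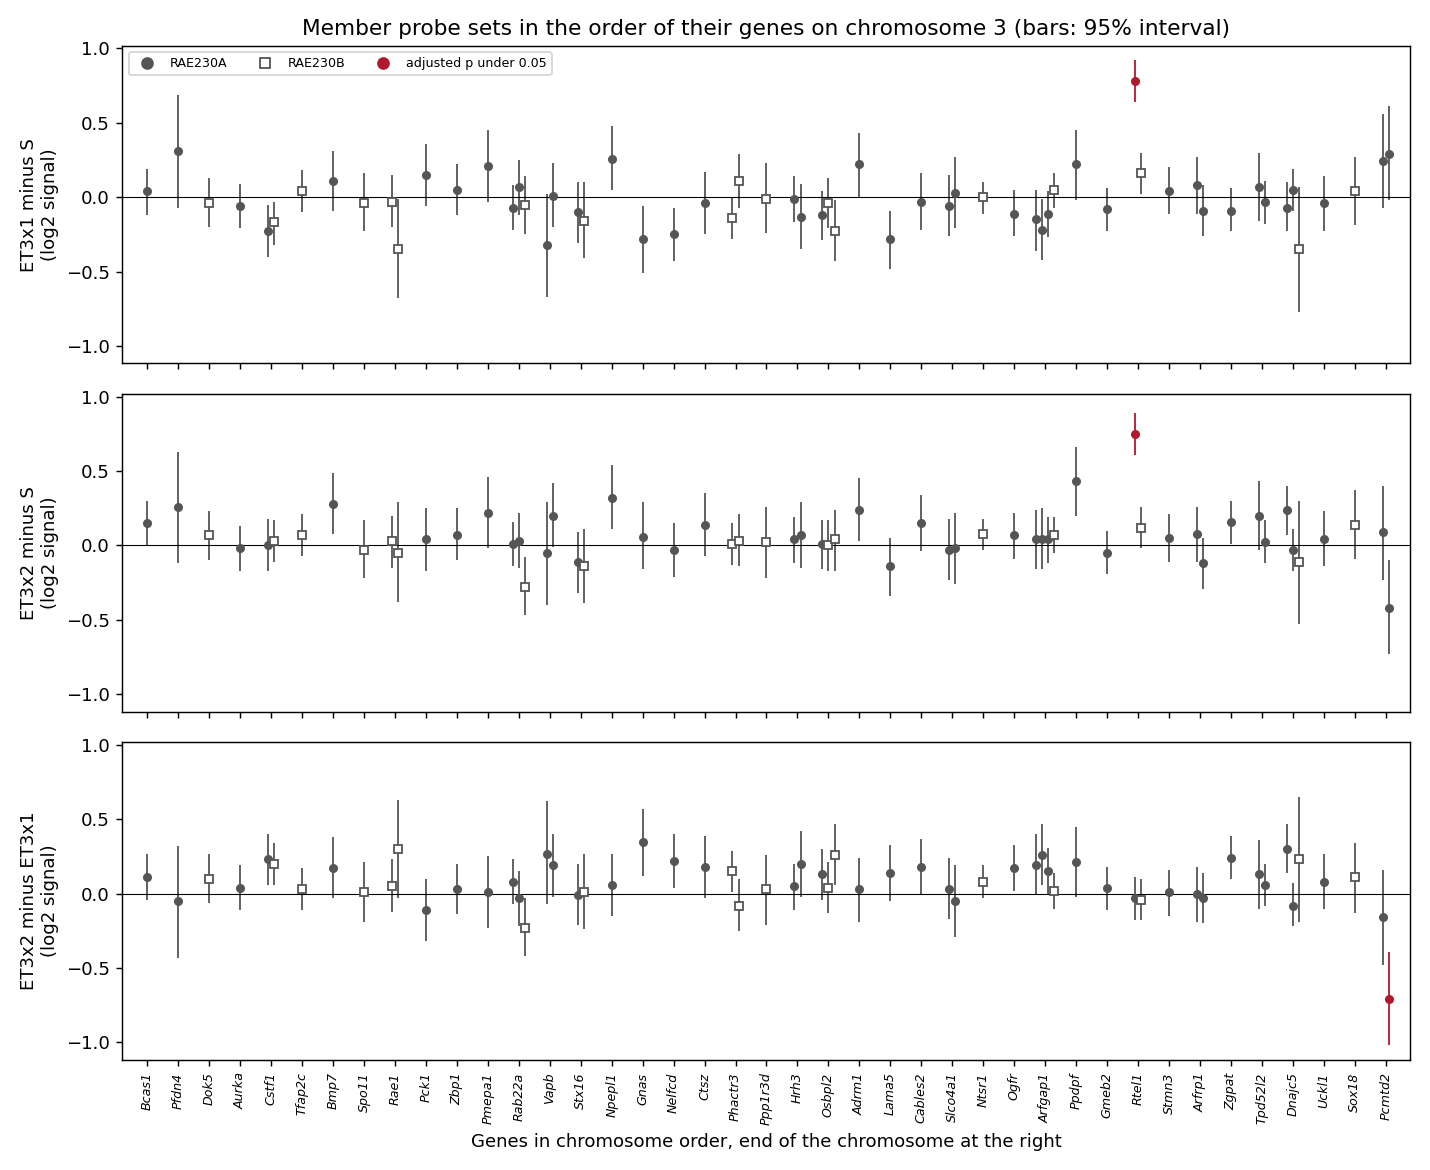
Log2 difference of each tested probe set (vertical axis) of the 41 genes in chromosome order (horizontal axis), for ET3x1 minus S, ET3x2 minus S and ET3x2 minus ET3x1 from top to bottom; bars are 95% intervals, circles RAE230A and squares RAE230B. Rtel1 1374921_at stands at 0.78 and 0.75 in the upper panels and Pcmtd2 1375916_at at −0.71 in the lowest, and these are the points in red, with an adjusted p under 0.05.

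Most of the 61 tested probe sets had small differences, as did most of all tested probe sets. For ET3x1 minus S the interval of the difference lay wholly within ±0.5 for 53 of 61 probe sets, beside 19537 of all 21799. The counts were 55 for ET3x2 minus S (19917 of all) and 56 for ET3x2 minus ET3x1 (19701 of all). The median difference was −0.037 in ET3x1 against S (all tested probe sets −0.005), 0.039 in ET3x2 against S (all 0.025) and 0.062 in ET3x2 against ET3x1 (all 0.032). Higher in the first-named strain were 24 of 61 (39.3%), 44 of 61 (72.1%) and 47 of 61 (77.0%) in these comparisons, where the shares over all tested probe sets were 48.4%, 59.0% and 60.8%. An unadjusted p under 0.05 was met by 13, 9 and 12 of the 61 probe sets (21.3%, 14.8% and 19.7%), beside 11.8%, 10.9% and 13.1% of all. The counts by role below are to be read beside these shares over all. With 1 pool left out, the median of ET3x1 against S ranged from −0.056 without ET3x1 pool F to −0.001 without ET3x1 pool G. Over all tested probe sets the medians were then −0.017 and 0.007.

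Pools that do not overlap between strains were counted as a second description. In ET3x1 against S the pools did not overlap for 5 of 61 probe sets, and the share was 6.40% over all tested probe sets. Npepl1 and Rtel1 were higher in ET3x1, and Cstf1 1395767_at, Gnas 1369897_s_at and Lama5 1388932_at were lower. In ET3x2 against S they did not overlap for 3 of 61 (5.95% of all), and Bmp7, Ntsr1 and Rtel1 were each higher in ET3x2. In ET3x2 against ET3x1 they did not overlap for 9 of 61 (9.15% of all). Pcmtd2 was lower in ET3x2, and Cstf1, Nelfcd, Phactr3, Osbpl2, Ogfr, Zgpat, Tpd52l2 and Dnajc5 were higher there with 1 probe set each.

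**Figure D3:**
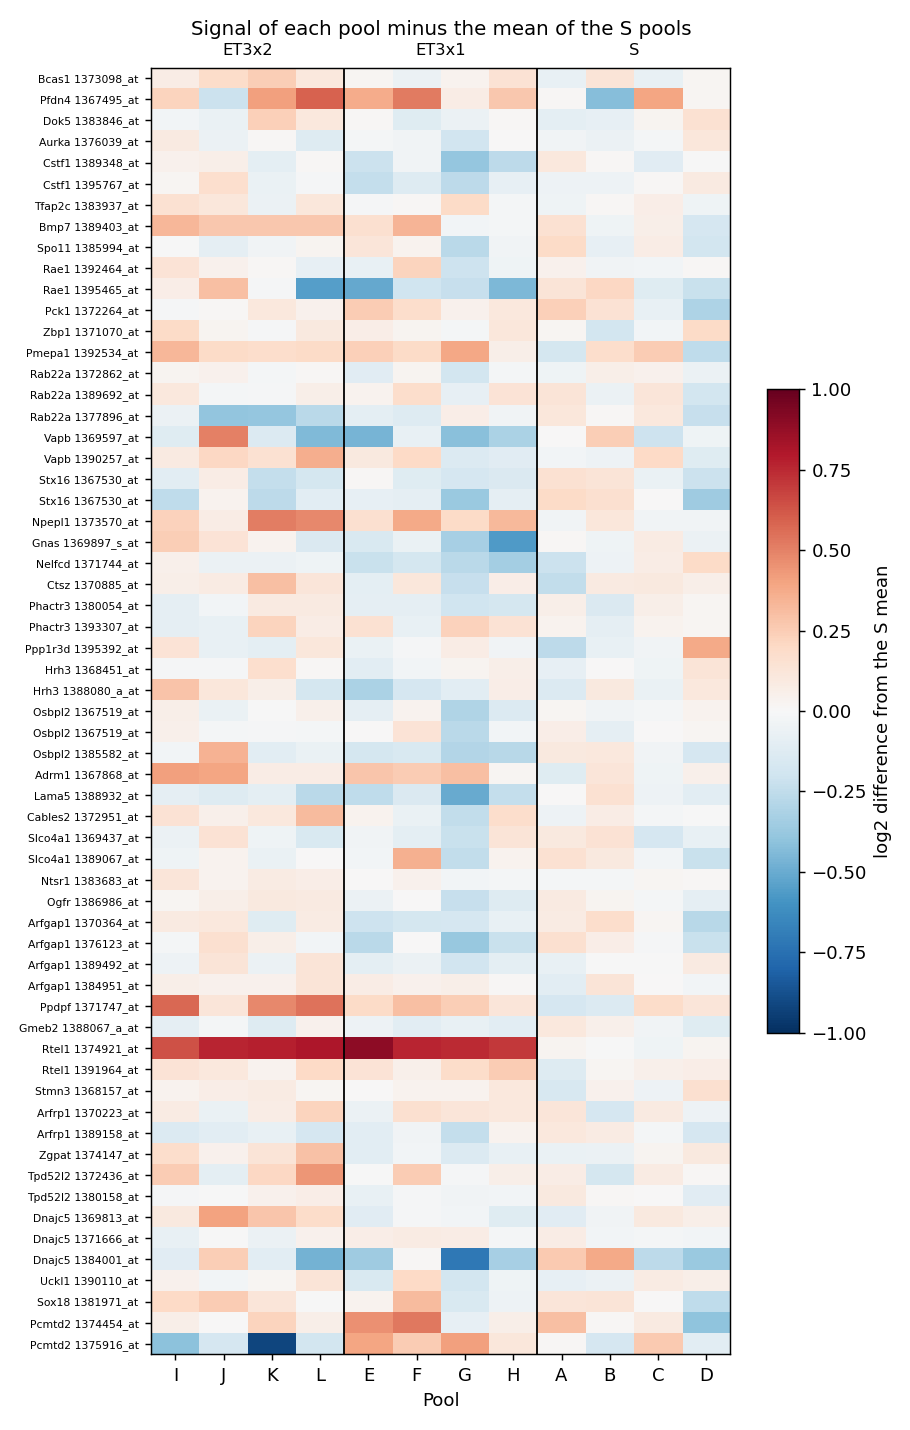
Signal of each pool minus the mean of the 4 S pools (colour, log2) for the 61 tested probe sets in chromosome order from top to bottom, with the pools of ET3x2, ET3x1 and S from left to right; Stx16 1367530_at and Osbpl2 1367519_at appear for RAE230A and then for RAE230B. The Rtel1 1374921_at line is dark red in all 8 congenic pools, and Pcmtd2 1375916_at is blue in ET3x2 and light red in ET3x1.

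Besides Rtel1, the genes grouped under DNA repair, chromosomes and cell division included 5 that were tested (Aurka, Spo11, Cables2, Ppdpf and Bcas1), none of them called. Ppdpf and Bcas1 belong under this heading only loosely. Aurka, the kinase that builds the mitotic spindle, had 8.05, 7.90, 7.97 and 7.83 in ET3x2, 7.94, 7.92, 7.77 and 7.96 in ET3x1, and 7.92, 7.90, 7.94 and 8.07 in S. The strains overlapped, and its differences from S were −0.02 in ET3x2 (adjusted p = 0.943) and −0.06 in ET3x1 (adjusted p = 0.742). Ppdpf, a factor named for the differentiation and proliferation of pancreatic progenitor cells, had 11.68, 11.23, 11.59 and 11.65 in ET3x2, 11.30, 11.41, 11.35 and 11.23 in ET3x1, and 10.94, 10.97, 11.29 and 11.23 in S. Pool J was the lowest of the ET3x2 pools and overlapped with S. The difference from S was 0.43 in ET3x2 (SE 0.11, interval 0.20 to 0.66, adjusted p = 0.160), and it passed the threshold without pool J (0.53, adjusted p = 0.0360). In ET3x1 it was 0.22 (adjusted p = 0.406).

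Spo11, which makes the DNA breaks of meiosis, ranged from 7.63 to 8.09 over all pools, and its differences were between −0.04 and 0.01. Cables2, a partner of cyclin-dependent kinases, and Bcas1, known from breast tumours and myelin, both differed from S by 0.15 in ET3x2 (adjusted p = 0.535 and 0.450). The single probe set of Sycp2, a synaptonemal complex protein, was under the filter.

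Of the receptors and G protein genes, 4 of 5 were tested and none of their 5 probe sets was called, with an unadjusted p under 0.05 for 1 in ET3x1 minus S, 0 in ET3x2 minus S and 2 in ET3x2 minus ET3x1. Gnas encodes the stimulatory G protein alpha subunit, through which hormones such as vasopressin and parathyroid hormone act on the tubule. Its probe set 1369897_s_at gave 13.61, 13.50, 13.40 and 13.22 in ET3x2, 13.21, 13.30, 13.03 and 12.80 in ET3x1, and 13.38, 13.32, 13.45 and 13.31 in S. The ET3x1 pools lay below the S pools with a gap of 0.01, and ET3x2 overlapped with both strains. The differences were 0.35 for ET3x2 against ET3x1 (SE 0.10, interval 0.12 to 0.57, adjusted p = 0.135), −0.28 for ET3x1 against S (adjusted p = 0.281) and 0.06 for ET3x2 against S (adjusted p = 0.862). The other 2 Gnas probe sets were under the filter.

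Ntsr1, the neurotensin receptor, had 9.64, 9.55, 9.60 and 9.58 in ET3x2, 9.52, 9.56, 9.49 and 9.50 in ET3x1, and 9.50, 9.50, 9.54 and 9.53 in S, a difference from S of 0.08 in ET3x2 (adjusted p = 0.626). Ogfr, the opioid growth factor receptor, was 0.17 higher in ET3x2 than in ET3x1 (adjusted p = 0.282). Hrh3, the presynaptic histamine receptor, differed from S by 0.04 and 0.07 in ET3x2 and by −0.01 and −0.13 in ET3x1 over its 2 probe sets.

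Vesicle traffic, membrane contact and lipid transfer was the role with the most tested probe sets, 21 of 8 genes. None was called, and an unadjusted p under 0.05 was met by 2, 2 and 4 of them in the same order of comparisons. Their differences lay between −0.35 and 0.08 in ET3x1 against S (median −0.068), between −0.28 and 0.24 in ET3x2 against S (median 0.025) and between −0.23 and 0.30 in ET3x2 against ET3x1 (median 0.082). Dnajc5, the cysteine string protein that assists vesicle release, had with 1369813_at 8.08, 8.39, 8.26 and 8.17 in ET3x2, 7.87, 7.97, 7.96 and 7.86 in ET3x1, and 7.87, 7.95, 8.08 and 8.04 in S. The ET3x2 pools lay above the ET3x1 pools, by 0.30 in the mean (SE 0.078, interval 0.14 to 0.47, adjusted p = 0.0834), and touched the S pools. The other 2 Dnajc5 probe sets differed by −0.08 and 0.23 in the same comparison, with adjusted p of 0.622 and 0.678.

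Rab22a, a GTPase of early endosomes, had 3 tested probe sets. For 1377896_at the values were 7.75, 7.41, 7.42 and 7.54 in ET3x2, 7.71, 7.68, 7.87 and 7.77 in ET3x1, and 7.92, 7.82, 7.91 and 7.58 in S. The difference from S was −0.28 in ET3x2 (adjusted p = 0.292), while the other 2 probe sets differed by 0.01 and 0.03. Vapb, a tether of the endoplasmic reticulum to other membranes, differed from S by −0.32 and 0.01 in ET3x1 (adjusted p = 0.402 and 0.967). Osbpl2, an oxysterol-binding protein, was 0.26 higher in ET3x2 than in ET3x1 with 1385582_at (adjusted p = 0.288). Arfgap1, which switches off the Golgi GTPase Arf, had 4 probe sets between −0.22 and 0.05 in ET3x1 against S and between 0.04 and 0.07 in ET3x2 against S. Tpd52l2, of the tumour protein family of vesicle proteins, differed from S by 0.20 and 0.02 in ET3x2.

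Stx16, a SNARE protein of the trans-Golgi network, and Osbpl2, like Pfdn4, each have 1 probe set that is present under the same name on both arrays, which gives a second hybridisation of the same pools. For Stx16 1367530_at the SD over the 12 pools of the difference between the arrays was 0.10, and for Osbpl2 1367519_at it was 0.06. For Pfdn4 1367495_at it was 0.18, and only the RAE230A copy is counted among the tested probe sets, since the other copy is unnamed in the annotation used here for RAE230B. The median of this SD over the 100 probe sets shared by the arrays was 0.11. For Stx16 the difference from S was −0.11 on RAE230A and −0.14 on RAE230B in ET3x2, and −0.10 and −0.16 in ET3x1, with adjusted p between 0.667 and 0.723. S pools A and B were the highest and pool D was among the lowest on both arrays.

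**Figure D4:**
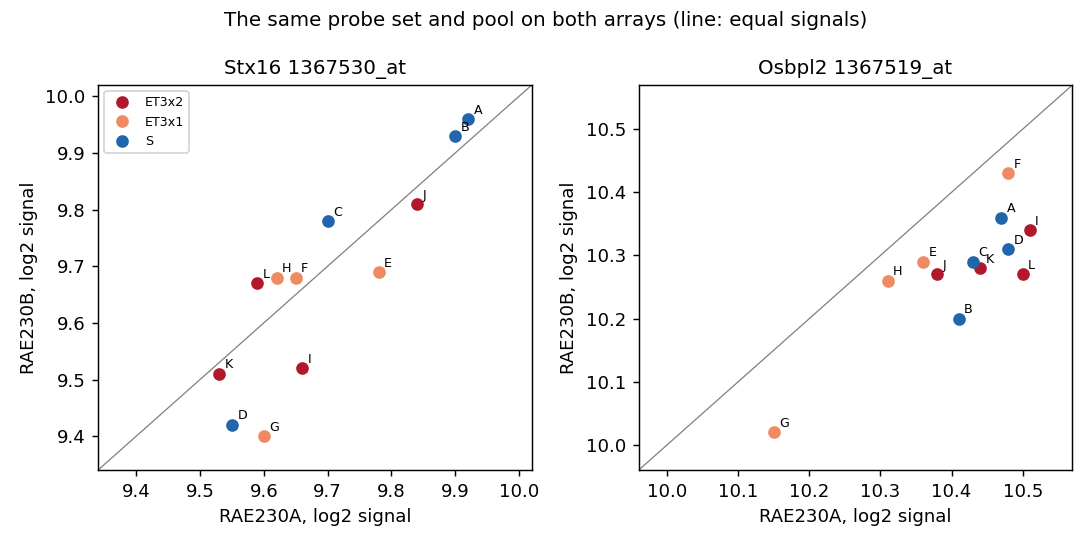
Log2 signal on RAE230B (vertical axis) against that on RAE230A (horizontal axis) of the probe sets 1367530_at of Stx16 and 1367519_at of Osbpl2, 1 point per pool, coloured by strain; the line marks equal signals, and Pfdn4 is not plotted. The SD of the difference between the arrays is 0.10 for Stx16 and 0.06 for Osbpl2.

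Of the matrix, adhesion and growth factor genes, 3 of 5 were tested with 1 probe set each and none was called, with an unadjusted p under 0.05 for Lama5 in ET3x1 minus S and for Bmp7 in ET3x2 minus S. Bmp7, a growth factor that nephrons need in development, had 10.62, 10.56, 10.56 and 10.56 in ET3x2, 10.45, 10.63, 10.26 and 10.27 in ET3x1, and 10.44, 10.25, 10.35 and 10.12 in S. Each ET3x2 pool lay above each S pool, and the difference was 0.28 (SE 0.095, interval 0.08 to 0.49, adjusted p = 0.283). Lama5, the laminin alpha chain of the mature glomerular basement membrane, had with 1388932_at 10.10, 10.06, 10.09 and 9.92 in ET3x2, 9.93, 10.04, 9.68 and 9.95 in ET3x1, and 10.19, 10.34, 10.14 and 10.08 in S. The ET3x1 pools lay below the S pools, with a difference of −0.28 (SE 0.091, interval −0.48 to −0.09, adjusted p = 0.231), and in ET3x2 it was −0.14 (adjusted p = 0.574). Pmepa1, which TGF-beta induces and which dampens its Smad signals, differed from S by 0.22 in ET3x2 and 0.21 in ET3x1 (adjusted p = 0.474 and 0.431).

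Of the 9 genes of metabolism, transport and proteolysis all were tested, with 11 probe sets, and Pcmtd2 was the one called. Pck1, the phosphoenolpyruvate carboxykinase of gluconeogenesis in the proximal tubule, had 13.35, 13.38, 13.47 and 13.41 in ET3x2, 13.62, 13.54, 13.41 and 13.47 in ET3x1, and 13.60, 13.51, 13.29 and 13.06 in S. The strains overlapped, with S pool D the lowest, and the differences from S were 0.04 in ET3x2 (adjusted p = 0.913) and 0.15 in ET3x1 (adjusted p = 0.529). When pools A, B and J were left out these became 0.24 (adjusted p = 0.497) and 0.34 (adjusted p = 0.157).

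Ctsz, a lysosomal cysteine protease, had 9.14, 9.16, 9.38 and 9.20 in ET3x2, 8.98, 9.19, 8.85 and 9.15 in ET3x1, and 8.83, 9.17, 9.18 and 9.14 in S. The strains overlapped, with differences from S of 0.14 in ET3x2 (adjusted p = 0.620) and −0.04 in ET3x1 (adjusted p = 0.897). Slco4a1, an organic anion transporter that carries thyroid hormone, had with 1369437_at 8.55, 8.75, 8.56 and 8.45 in ET3x2, 8.57, 8.51, 8.38 and 8.73 in ET3x1, and 8.70, 8.75, 8.44 and 8.53 in S. Its differences from S were −0.03 in ET3x2 (adjusted p = 0.941) and −0.06 in ET3x1 (adjusted p = 0.824).

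Npepl1, an aminopeptidase-like protein, had 10.07, 9.91, 10.35 and 10.32 in ET3x2, 10, 10.22, 10.03 and 10.16 in ET3x1, and 9.80, 9.95, 9.80 and 9.80 in S. It differed from S by 0.32 in ET3x2 (SE 0.10, interval 0.11 to 0.54, adjusted p = 0.237) and by 0.26 in ET3x1 (SE 0.10, interval 0.05 to 0.48, adjusted p = 0.290), with ET3x2 pool J overlapping S pool B. Adrm1, a ubiquitin receptor of the proteasome, differed by 0.24 in ET3x2 (adjusted p = 0.384) and 0.22 in ET3x1 (adjusted p = 0.369). Pfdn4, a subunit of the chaperone prefoldin, differed by 0.26 in ET3x2 (adjusted p = 0.613) and 0.31 in ET3x1 (adjusted p = 0.461), and its spread within strains was among the widest of the list, with a pooled SD of 0.30. Uckl1, of the uridine-cytidine kinases, and Ppp1r3d, which brings a phosphatase to glycogen, differed from S by −0.04 to 0.04 with their tested probe sets.

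Transcription and chromatin genes gave 5 tested probe sets of 5 genes, and none was called, with an unadjusted p under 0.05 for 1, 1 and 2 of them in ET3x1 minus S, ET3x2 minus S and ET3x2 minus ET3x1. In ET3x2 against ET3x1 all 5 differences were above 0, between 0.03 and 0.24. So were all 5 differences of the receptor and G protein genes, all 5 of the RNA genes and all 3 of the matrix genes. The share above 0 was 77.0% over the 61 listed probe sets and 60.8% over all tested ones. Zgpat had 7.73, 7.60, 7.68 and 7.85 in ET3x2 and 7.45, 7.53, 7.42 and 7.48 in ET3x1, with no overlap and a difference of 0.24 (SE 0.069, interval 0.10 to 0.39, adjusted p = 0.113). Nelfcd, a subunit of the negative elongation factor that pauses RNA polymerase, differed by 0.22 in the same comparison (adjusted p = 0.230). Sox18, an endothelial transcription factor of blood and lymph vessels, had 9.38, 9.44, 9.30 and 9.18 in ET3x2, 9.22, 9.50, 9.03 and 9.13 in ET3x1, and 9.30, 9.31, 9.19 and 8.93 in S. The strains overlapped, and its differences from S were 0.14 in ET3x2 (adjusted p = 0.696) and 0.04 in ET3x1 (adjusted p = 0.928). Tfap2c, a transcription factor of the AP-2 family, differed from S by 0.07 in ET3x2 and 0.04 in ET3x1. Gata5 and Ss18l1 were under the filter.

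Of the RNA genes, Cstf1, Rae1 and Zbp1 were tested with 5 probe sets, and none was called. An unadjusted p under 0.05 was met by 3 of them in ET3x1 minus S, 0 in ET3x2 minus S and 2 in ET3x2 minus ET3x1. Over all tested probe sets the shares were 11.8%, 10.9% and 13.1%. Both Cstf1 probe sets are among the 3 and make up the 2, so these are not counts of separate genes. Cstf1, of the complex that cleaves transcripts before polyadenylation, had 7.50, 7.65, 7.41 and 7.47 in ET3x2, 7.24, 7.35, 7.22 and 7.40 in ET3x1, and 7.43, 7.43, 7.49 and 7.57 in S with 1395767_at. The ET3x1 pools lay below those of both other strains. The differences were 0.20 and 0.23 for the 2 probe sets in ET3x2 against ET3x1 (adjusted p = 0.209 and 0.201) and −0.17 and −0.23 in ET3x1 against S (adjusted p = 0.356 and 0.272). Rae1, an mRNA export factor of the nuclear pore, differed by −0.35 with 1395465_at in ET3x1 against S (adjusted p = 0.461) and by −0.03 with 1392464_at. Zbp1, a sensor of nucleic acids in Z form, differed from S by 0.07 in ET3x2 and 0.05 in ET3x1.

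Of the adapter and cytoskeletal genes, Dok5, Stmn3 and Phactr3 were tested with 4 probe sets, and none was called. An unadjusted p under 0.05 was met by Phactr3 1380054_at, in ET3x1 minus S and in ET3x2 minus ET3x1. Phactr3, which binds actin and a protein phosphatase, had with 1380054_at 7.04, 7.10, 7.22 and 7.22 in ET3x2, 7.04, 7.04, 6.93 and 6.95 in ET3x1, and 7.19, 6.98, 7.19 and 7.15 in S. ET3x2 stood above ET3x1 by 0.15 in the mean (SE 0.065, interval 0.01 to 0.29, adjusted p = 0.393), with pools I, E and F level at 7.04 when rounded. The other Phactr3 probe set differed by −0.08 in the same comparison. Dok5, an adapter of receptor tyrosine kinases, differed from S by 0.07 in ET3x2 and −0.04 in ET3x1.

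Of the 14 probe sets under the filter, none was called when all were fitted without it by limma, in any comparison. An unadjusted p under 0.05 was met by 3, 3 and 1 of the 14 in ET3x1 minus S, ET3x2 minus S and ET3x2 minus ET3x1. In the main fit the shares over all tested probe sets were 11.8%, 10.9% and 13.1%. The 14 covered 1 or 2 further probe sets of Dok5, Gnas, Ppp1r3d, Osbpl2, Lama5, Gmeb2 and Rtel1, and all those of Sycp2, Ss18l1 and Gata5. Their differences lay between −0.21 and 0.18 in ET3x1 against S and between −0.09 and 0.36 in ET3x2 against S, where the upper ends are those of Rtel1 1397955_at.

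Probe sets of the same gene did not always move alike. The 15 genes tested more than once include Stx16, whose 2 entries are the same probe set on both arrays, and Osbpl2 has 1 such repeat. All entries had one sign in 7 genes for ET3x1 against S, 8 genes for ET3x2 against S and 10 genes between ET3x2 and ET3x1. Stx16 is among the 7 and the 8 but not the 10, and its agreement is that of a repeated hybridisation. No gene had all its tested probe sets called. The pooled SD within strains was 0.031 to 0.33 over the 61 probe sets, with a median of 0.12, which was also the median over all 21799.

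Other genes of the same stretch that are not on the list were tested with 35 probe sets of 26 genes. None was called by limma in any of the 3 comparisons. An unadjusted p under 0.05 was met by 3 of the 35 in each (8.57%), beside 11.8%, 10.9% and 13.1% of all tested probe sets. On the rest of chromosome 3, limma called 8 of 1084 probe sets for ET3x1 minus S (0.738%), 4 for ET3x2 minus S (0.369%) and 23 for ET3x2 minus ET3x1 (2.12%). The shares over all tested probe sets were 0.440%, 0.344% and 1.48%. The called gene nearest to the stretch was Ddx27, an RNA helicase 31 protein-coding genes before it, with a difference of −0.27 in ET3x2 against ET3x1 (SE 0.061, adjusted p = 0.0339).

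Across the arrays, medians were 8.49 to 8.60 on RAE230A and 7.55 to 7.62 on RAE230B. ET3x2 pool J and the S pools A and B lay apart from the rest on the first principal component, with the highest actin 5′ minus 3′ control signals on RAE230A, −1.14 in J and −1.27 in A and B, against −2.10 to −1.66 in the other pools. Of the 11 measured kidney markers 10 passed the filter and none was called. Of the markers of other tissues and cells, Jchain of plasma cells was the one called, and it was higher in both congenic strains, as Rtel1 was. Its mean was 9.85 in ET3x2, 10.35 in ET3x1 and 8.63 in S, and the log2 of the summed signal of the 2 measured B and plasma cell markers was 9.92 to 10.31 in ET3x2, 9.90 to 10.76 in ET3x1 and 8.96 to 9.21 in S. Jchain makes up most of this sum, so the summed range mostly repeats that marker. The other, Cd79b, was under the filter with means of 7.17, 7.09 and 7.07. The part of these cells in the Rtel1 difference was not tested.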

How the data were processed

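Per the labels, total RNA of left kidneys was pooled within strains, and biotin-labelled cRNA, made from oligo(dT)-primed cDNA of 15 μg RNA, was hybridised to 24 Affymetrix arrays, 12 RAE230A and 12 RAE230B. The deposited tables hold 1 value per probe set and pool, which was read as log2 signal from its range. Summarisation and normalisation by the authors are not given in the sources used here, and no further scaling was applied. Precision is limited by the number of arrays, which have no read depth.

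Probe sets were named through the array annotation and, by gene identifier, a rat RefSeq table (GRCr8), used only for names and gene order. Control probe sets (57 per array) were not tested. Each array's 12 pools were fitted with limma 3.58.1 in R 4.3.3 (lmFit, then eBayes with trend), with the 3 strains sharing one estimate of the spread, no covariate, two-sided p-values and Benjamini-Hochberg adjustment within array and comparison. The fit was tested on simulated data with independent noise for each probe set, which does not cover differences that pools share over many probe sets. Sequences were read from RefSeq tables, and figures drawn with matplotlib 3.10.9 in Python 3.11.15.

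The listed genes, role lists and alternatives were chosen with earlier results of these data known. Named with all pool values were called probe sets and, of 11 fixed genes, the one with the highest signal; by difference, the 5 highest and 5 lowest probe sets of each comparison. Pool values of Ppdpf, Npepl1, Ntsr1, Cstf1, Rab22a, Zgpat and Dnajc5 were added after their values were seen. Alternatives were another or no filter, quantile or median scaling, other variance priors, array weights, fits of 2 strains, an actin 5′ minus 3′ covariate, adjustment over both arrays, and fits without single pools or without pools A, B and J.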

Additional observations from a re-analysis of the deposited data

Results flagged for a closer look

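Among the named probe sets 25 were checked in each of the 3 strains, 75 groups of 4 pools, for a pool far from the other 3, which chance alone would give in about 1 in 20 groups. In 6 groups a pool stood apart. Bmp7 1389403_at was 10.62 in ET3x2 pool I, where the nearest pool had 10.56. Osbpl2 1385582_at was 8.54 in ET3x2 pool J, where the nearest had 8.17. Stx16 1367530_at on RAE230B was 9.40 in ET3x1 pool G, where the nearest had 9.68. On RAE230A pool G did not stand apart with this probe set, at 9.60 beside 9.62 in H, 9.65 in F and 9.78 in E. Ctsz 1370885_at was 8.83 in S pool A, where the nearest had 9.14. Npepl1 1373570_at was 9.95 in S pool B, where the nearest had 9.80, and Phactr3 1393307_at was 6.79 in S pool B, where the nearest had 6.90.

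The change from S differed between the congenic strains for Pcmtd2 1375916_at. Since both share the S pools, this is the difference between ET3x2 and ET3x1 itself, −0.71 with an adjusted p of 0.0350 in limma.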

How the results depend on the processing

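The settings were tried one at a time. Among listed genes, the call of Rtel1 in both comparisons with S was kept wherever its probe set was tested, and a filter at the 50th percentile leaves it out by construction, giving 0 called listed probe sets in ET3x1 and 0 in ET3x2 against S. Array weights called 2 in ET3x2 against S and 6 in ET3x2 against ET3x1, and the actin covariate 2 and 2, in place of 1 each. The calls over all 21799 tested probe sets rose as well. They were 419 and 1658 with weights and 432 and 502 with the covariate, in place of 75 and 323. With 1 pool left out the counts of listed probe sets were 1 in ET3x1 against S, 1 to 2 in ET3x2 against S (2 without pool J) and 0 to 1 in ET3x2 against ET3x1 (0 without E, G, I or K). The added calls in ET3x2 against S were Ppdpf (0.48 with weights, adjusted p = 0.0261; 0.44 with the covariate, adjusted p = 0.0161; without pool J as given above). The added calls between the congenic strains were Dnajc5, Gnas, Zgpat, Arfgap1 and Cstf1 with weights and Zgpat with the covariate, each higher in ET3x2. The cause was not tested.

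Over all tested probe sets the counts moved as well. In ET3x1 against S, 164 were called with array weights, 51 with only both strains in the fit, 215 with the covariate, and 41 (without pool E) to 118 (without pool J) with 1 pool left out. In ET3x2 against S the counts were 419, 42, 432 and 19 (without A, I or K) to 167 (without D), and 17 without pools A, B and J together. In ET3x2 against ET3x1 they were 1658 with weights, 502 with the covariate and 133 (without K) to 488 (without F) with 1 pool left out. Of the differences of single named probe sets 1689 kept their side of the threshold and, where not called, moved by no more than the spread between pools, 4 lost the call (Pcmtd2), 5 gained it and 3 moved by more than that spread. No called difference changed sign. Of the differences that were not called, 23 had the other sign under at least 1 alternative, 53 values in all, none of them past the threshold in either setting; the one furthest from 0 was Dnajc5 1384001_at in ET3x2 against ET3x1, 0.23 and, with the covariate, −0.06. No paired analysis was possible because the pool letters differ between strains. Signal near background limits Rtel1 1397955_at and the other probe sets under the filter.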
